A study of Mus musculus with 6 samples.

Results

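The 10 genes described here encode the machinery by which a T cell senses interleukin-2 (IL-2) and limits its own response to it. They are the receptor chains Il2ra, Il2rb and Il2rg, the transcription factors Stat5a and Stat5b, the feedback inhibitors Cish, Socs1 and Socs2, and the kinases Pim1 and Pim2. The deposited tables write them in capitals (IL2RA, IL2RB, IL2RG, STAT5A, STAT5B, CISH, SOCS1, SOCS2, PIM1 and PIM2). They were picked by symbol from the table of gene counts, which holds 24982 symbols, and from the table of FPKM values (counts per length and depth), which holds 24917. All 10 were present in both tables, and all 10 passed the filter on low counts, which left 11772 genes for testing.

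RNA was read from natural regulatory T cells (nTreg cells), sorted as CD4+CD25+CD127lo cells from the spleens of B6.129 mice aged 8 to 10 weeks. One group of 3 mice was wild type (WT), and the other (KO) was labelled Srsf1-flox/flox dLck.Cre, so that both Srsf1 alleles can be cut out in T cells. The name dLck.Cre is used for Cre recombinase driven by the distal Lck promoter, which acts in T cells. Whether the WT mice carried the Cre or the floxed alleles is not given in the sources used here. All 6 cultures received CD3 and CD28 antibodies (2 µg/ml each) and recombinant IL-2 (10 ng/ml) over 72 h, so every library comes from cells under added IL-2 and none from cells without it. CD25, the protein made from Il2ra, was also the marker on which the cells of both groups were sorted.

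IL-2 binds a receptor of 3 chains. The alpha chain raises the affinity of the complex, while the beta and gamma chains carry the signal to the kinases JAK1 and JAK3, which phosphorylate STAT5. In Treg cells, which make little IL-2 and depend on that of other cells, STAT5 sustains Foxp3 and Il2ra and switches on Cish, Socs1 and Socs2, whose products damp the signal, and the Pim kinases, which favour growth and survival.

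Libraries held 10183626 to 27562046 counts, and each KO library held fewer than each WT library. The lowest count of any of the 10 genes in any library was 529, for Socs1 in KO replicate 3. Unless FPKM is named, levels are CPM, counts scaled to a common library size by TMM, and 3 values of a group are listed as replicates 1, 2 and 3. For Srsf1, the targeted gene, WT libraries read 1213, 1230 and 755 CPM and KO libraries 438, 811 and 786 CPM. The third WT library thus goes against its label, with less Srsf1 than KO replicates 2 or 3, and is called by its label throughout.

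One library, KO replicate 1, was unlike the rest. Its correlation with them across genes was 0.900 to 0.927 (Pearson's r of log2 CPM), where the remaining libraries reached 0.945 to 0.989 with each other, and its mismatch rate was 0.52%, against 0.32% to 0.43%. It also differed by base composition. Tested genes were split into deciles by GC content. In the decile with the lowest GC content, the median of KO replicate 1 lay at -1.36 on the log2 scale relative to the median of the other 5 libraries, and in the decile with the highest it lay at 1.35. In the other 5 libraries, the same difference between the GC-rich and the GC-poor decile ran from -0.40 to 0.20, against 2.71 in KO replicate 1. Log2 fold changes of the 10 genes are therefore also given without this library and, from all 6 libraries, with an offset for GC content and transcript length, which was chosen after seeing the data.

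None of the 10 genes passed the threshold between KO and WT. The smallest adjusted p was 0.668 in edgeR's quasi-likelihood test, and DESeq2 also called 0 of the 10. Over all 11772 genes edgeR called 2, or 0.017%, and DESeq2 called 129, or 1.1%. At an unadjusted p under 0.05 edgeR listed 0 of the 10 genes, where 7.51% of all tested genes had such a p. Of the 10 genes, 7 had a log2 fold change above 0, with a median of 0.13, while over all tested genes 51.6% were above 0 and the median was 0.02. That count depended on KO replicate 1. Without it, Il2rb, Stat5a, Stat5b, Cish and Socs1 fell below 0 and Il2ra rose above 0. The groups did not overlap for 1 of the 10 genes, Il2rg, against 15.7% of all tested genes (7.48% with KO above WT and 8.18% with KO below WT).

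**Figure D1:**
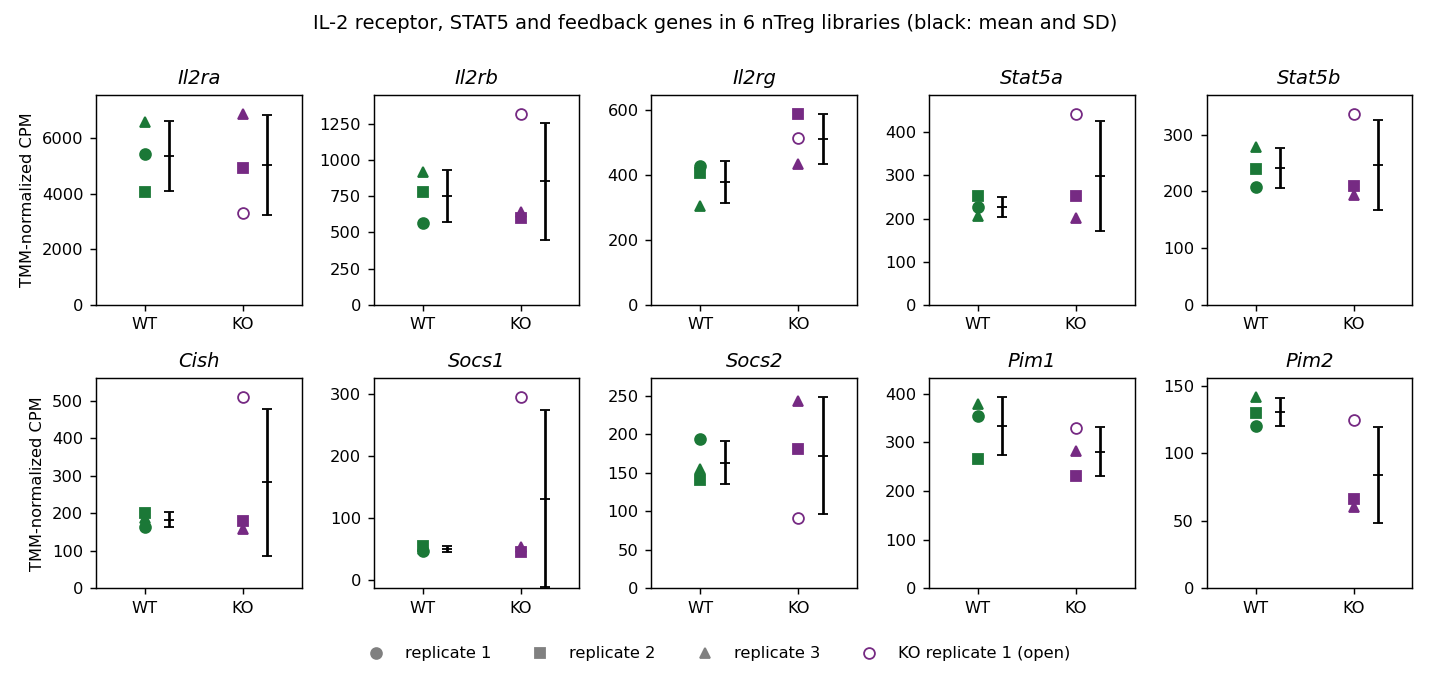
TMM-normalized CPM of the 10 genes (y axis, 1 panel a gene) in the 3 WT and 3 KO libraries (x axis). Each marker is a library, KO replicate 1 is the open circle, and black bars give the mean and SD. KO replicate 1 is the highest of the 6 libraries for Il2rb, Stat5a, Stat5b, Cish and Socs1 and the lowest for Il2ra and Socs2.

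Receptor chains come first. Il2ra, the alpha chain, was the most abundant of the 10 genes. WT libraries read 5425, 4070 and 6562 CPM, and KO libraries 3298, 4926 and 6875 CPM. The highest and the lowest library were both KO libraries, and the groups overlapped. Its log2 fold change was -0.09 (SE 0.32), with a 95% interval of -0.82 to 0.65 and an edgeR adjusted p of 0.936. The sign turned without KO replicate 1 (0.14), without WT replicate 3 (0.082) and with the offset (0.072), and the value was -0.39 without KO replicate 3. These 6 libraries therefore leave room for a mean anywhere from 0.565 to 1.57 times that of WT.

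Il2rb encodes the beta chain, which is shared with the receptor for IL-15. Levels were 565, 778 and 919 CPM in the WT libraries, against 1323, 603 and 642 CPM in those of KO. KO replicate 1 was far above the rest, while KO replicates 2 and 3 lay within the WT range. The log2 fold change was 0.18 (SE 0.36, edgeR adjusted p = 0.886), and without KO replicate 1 it was -0.28 (SE 0.22, edgeR adjusted p = 0.693). With the offset it was -0.091 (SE 0.20).

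Il2rg encodes the common gamma chain, which is shared by the receptors for IL-2, IL-4, IL-7, IL-9, IL-15 and IL-21. Its CPM were 427, 406 and 304 in WT, against 513, 589 and 434 in KO. Every KO library lay above every WT library, a pattern seen upward in 7.48% of all tested genes. At a log2 fold change of 0.43 (SE 0.24, 95% interval -0.12 to 0.99), the difference missed the threshold (edgeR adjusted p = 0.713). It was as large without KO replicate 1 (0.43, SE 0.21, edgeR adjusted p = 0.518), was 0.29 (SE 0.27) without WT replicate 3, and was 0.51 (SE 0.18, edgeR adjusted p = 0.324) with the GC and length offset. In FPKM, too, all KO libraries lay above all WT libraries for this gene, as for 5.9% of genes on that scale.

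The transcription factors follow. For Stat5a, CPM of 226, 251 and 206 in WT stood against 444, 251 and 201 in KO. Only KO replicate 1 stood out, and the other 5 libraries spanned a narrow range. Its log2 fold change was 0.39 (SE 0.32, edgeR adjusted p = 0.761) with all libraries and -0.01 (SE 0.17, edgeR adjusted p = 0.989) without KO replicate 1, and -0.040 (SE 0.18) with the offset.

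For Stat5b the WT libraries gave 207, 239 and 278 CPM, and those of KO gave 337, 209 and 193 CPM. KO replicate 1 was again the highest, with KO replicates 2 and 3 near or below the lowest WT library. This gave a log2 fold change of 0.03 (SE 0.28, edgeR adjusted p = 0.973), or -0.26 (SE 0.17, edgeR adjusted p = 0.628) without KO replicate 1 and -0.18 (SE 0.15) with the offset. Stat5a and Stat5b are close paralogs that lie side by side in the genome, and the sources used here do not say how reads matching both were counted, so the split between them is uncertain.

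The feedback inhibitors held the widest spread. Cish, whose SH2-domain product binds the IL-2 receptor and blocks STAT5, had 163, 200 and 186 CPM in WT against 509, 180 and 157 CPM in KO. Socs1, an inhibitor of JAK kinases, had 46.7, 55.0 and 50.2 CPM in WT against 296, 45.3 and 53.0 CPM in KO. For both genes KO replicate 1 alone was high, and KO replicates 2 and 3 lay close to the WT libraries. Cish had a log2 fold change of 0.62 (SE 0.43, edgeR adjusted p = 0.749), which was -0.12 (SE 0.16, edgeR adjusted p = 0.819) without KO replicate 1. With the offset it was 0.32 (SE 0.29, edgeR adjusted p = 0.722).

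Socs1 had the largest fold change of the 10 genes, at 1.38 on the log2 scale (SE 0.65, edgeR adjusted p = 0.668), with a 95% interval of -0.11 to 2.87. Without KO replicate 1 it was -0.04 (SE 0.17, edgeR adjusted p = 0.947), so the value for all libraries rested on that library. With the offset it was 0.62 (SE 0.33, edgeR adjusted p = 0.518).

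Socs2, another inhibitor of the family, was low in that library. WT libraries read 194, 141 and 154 CPM, KO libraries 92.0, 181 and 243 CPM. The lowest and the highest library were both KO libraries. Over all libraries the log2 fold change was 0.08 (SE 0.35, edgeR adjusted p = 0.949), moving to 0.38 (SE 0.20, edgeR adjusted p = 0.547) without KO replicate 1 and to -0.27 without KO replicate 3. The offset gave 0.18 (SE 0.22).

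Of the genes whose promoter could be searched, only Cish carries the core motif bound by STAT5 at its annotated start, and its sequence is shown for that reason. RefSeq promoter windows (GRCm38.p6, 250 bases before to 50 bases after an annotated start) were found for 8 of the 10 genes, all but Il2rb and Socs2, as 11 windows of 300 bases. They were searched for TTCNNNGAA, which reads the same on both strands. The Cish stretch is chr9:107296559-107296678 on the plus strand, from 100 bases before the start to base 20 after it, with the matches in capitals.

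Cish: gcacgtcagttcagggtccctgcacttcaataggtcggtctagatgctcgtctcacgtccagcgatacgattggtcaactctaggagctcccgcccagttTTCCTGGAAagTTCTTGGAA

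The Cish window held 2 matches, at bases 1 to 9 and 12 to 20 counted from the annotated start. Of 32851 windows in the whole table, 8.3% held at least 1 match and 0.457% at least 2. The windows of Il2ra, Il2rg, Stat5a, Stat5b, Socs1, Pim1 and Pim2 held no match, which says only that these letters are not in those 300 bases. The tandem motif is a description of the sequence, to be read beside a Cish log2 fold change of 0.62 with KO replicate 1 and -0.12 without it.

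Pim1 and Pim2 encode serine/threonine kinases that act without prior activation, so that their amount sets their activity. Pim1 gave 353, 266 and 380 CPM in WT libraries, against 330, 231 and 283 CPM in KO libraries. The groups overlapped, and the log2 fold change was -0.25 (SE 0.25, edgeR adjusted p = 0.796). Without KO replicate 1 it was -0.38 (SE 0.20, edgeR adjusted p = 0.553), and with the GC and length offset -0.47 (SE 0.22, edgeR adjusted p = 0.448).

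Pim2 was the 1 gene of the 10 to pass the threshold under any alternative tried, and its value depended on KO replicate 1. WT libraries held 120, 130 and 142 CPM, and KO libraries 125, 66.0 and 60.6 CPM. KO replicates 2 and 3 were far below every WT library, while KO replicate 1 lay within the WT range. The log2 fold change over all libraries was -0.64 (SE 0.31, 95% interval -1.33 to 0.06, edgeR adjusted p = 0.671). Without KO replicate 1 it was -1.04 (SE 0.15, edgeR adjusted p = 0.106), in a fit that called 3 of 11990 genes, or 0.025%. When WT replicate 3 was left out as well, it was -0.96 (SE 0.14) and passed the threshold, with an edgeR adjusted p of 0.0253. That fit of 2 against 2 libraries called 80 of 11549 genes, or 0.693%, of which 16 (0.139%) were lower in KO.

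In FPKM, Pim2 was at 67.9, 68.1 and 80.9 in WT and at 62.3, 39.2 and 38.4 in KO. On this scale all 3 KO libraries lay below all 3 WT libraries, a pattern seen downward in 8.47% of genes with at least 1 FPKM in 3 libraries (14.4% in either direction). Of the 10 genes, 2 did not overlap in FPKM, Il2rg and Pim2. The limma test on log2(FPKM + 1) gave -0.65 (SE 0.24, limma adjusted p = 0.845). Counts and FPKM were related differently in KO replicate 1 for this gene: its counts per FPKM, scaled to the library's median gene and to the gene's own median, were 1.30 in KO replicate 1 and 0.871 to 1.1 in the other 5. For Pim1 the same quantity was 1.41 in KO replicate 1 and 0.975 to 1 in the others. The ratio of the highest to the lowest library was 1.49 for Pim2 and 1.44 for Pim1, above that of 97% of 9123 genes, so the counts and FPKM of these 2 genes are not interchangeable in that library. For Il2ra, Il2rb, Il2rg, Stat5a and Cish this ratio was at most 1.04, and for Stat5b, Socs2 and Socs1 it was 1.11, 1.13 and 1.22.

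**Figure D2:**
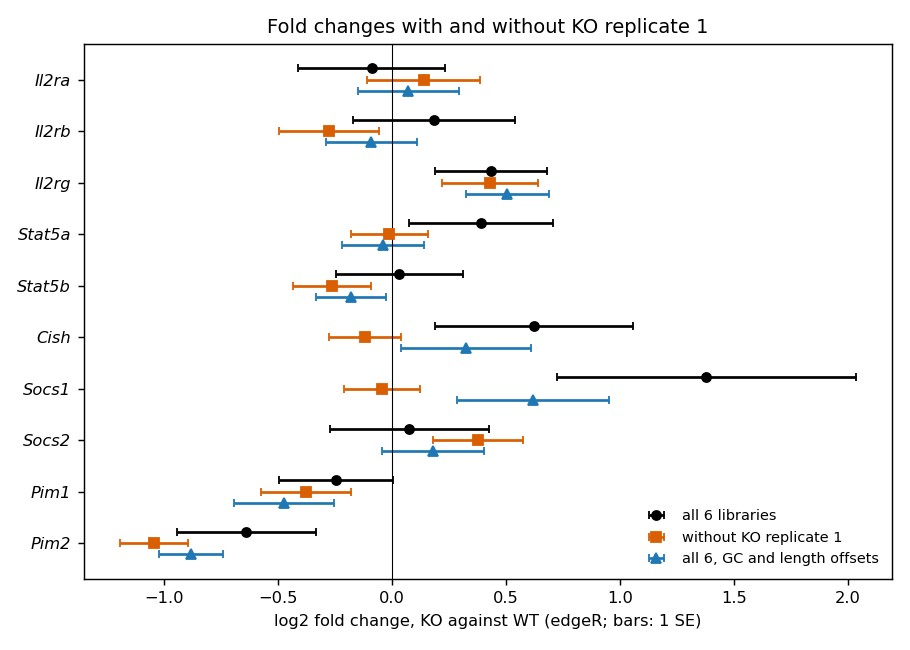
Log2 fold change in KO against WT for the 10 genes (x axis, edgeR, bars of 1 SE) with all 6 libraries, without KO replicate 1, and with all 6 libraries and an offset for GC content and length. Socs1 moves from 1.38 to -0.04 and Cish from 0.62 to -0.12 without KO replicate 1, while Il2rg stays at 0.43 and Pim2 moves from -0.64 to -1.04.

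KO replicate 1 was next set against genes of like GC content. Il2ra and Socs2, with transcripts of 44.4% and 45.4% GC, were lower in KO replicate 1 than in the median of the other 5 libraries, by -0.72 and -0.98 on the log2 scale. The median of all tested genes in the same GC decile was -0.64, and both lay between the 23.4 and 43.1 percentiles of it. Stat5a (57.9% GC) stood at 0.97, where its decile had a median of 1.35. Il2rb and Stat5b stood at 1.04 and 0.69, against 0.69 and 0.44 for their deciles.

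Socs1 and Cish stood higher than most genes of like composition. Socs1 (58.8% GC) was 2.56 higher in KO replicate 1 on the log2 scale, above 97% of the genes in its decile, and Cish (53.1% GC) was 1.5 higher, above 95.8% of those in its decile. Pim1 and Pim2 lay at the opposite end. They stood at 0.22 and 0.05, where their deciles had medians of 0.97 and 0.69, which placed them at the 9.08 and 9.51 percentiles. These are values of 1 library, with no replicate of their own.

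**Figure D3:**
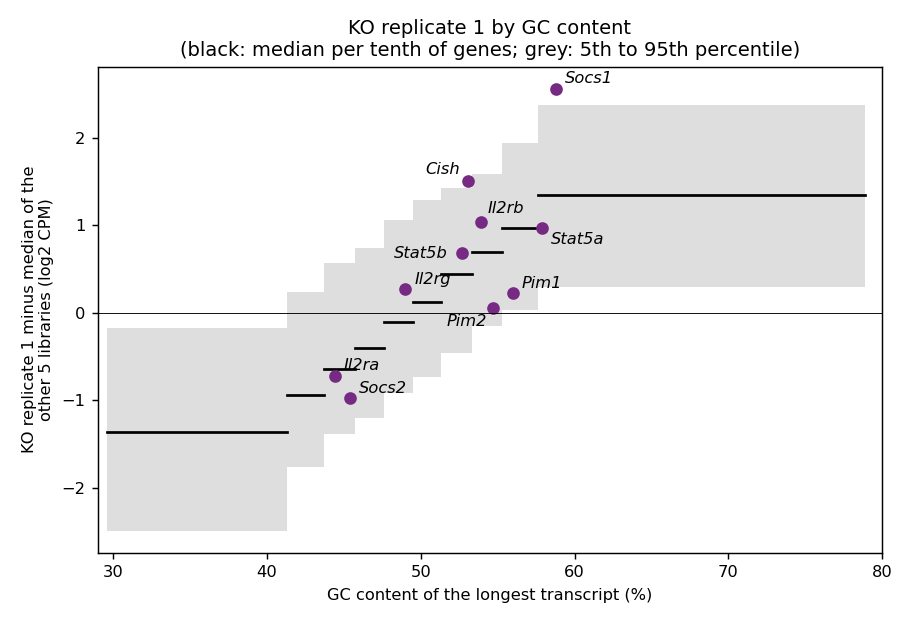
Difference between KO replicate 1 and the median of the other 5 libraries (y axis, log2 CPM) against the GC content of the longest transcript (x axis, percent). Black lines give the median and grey bands the 5th to 95th percentile of tested genes in each GC decile, and purple points are the 10 genes. Socs1 and Cish lie just above the bands of their deciles, and Pim1 and Pim2 near the lower edge.

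With the offset for GC content and length, the adjusted CPM of Pim2 were 134, 133 and 147 in WT and 82.5, 74.6 and 67.4 in KO. All 3 KO libraries were then below all 3 WT libraries, a pattern seen downward in 9.07% of genes with a GC value (18.3% in either direction). The log2 fold change was -0.88 (SE 0.14), with an edgeR adjusted p of 0.0741, which missed the threshold. That fit called 6 of 11772 genes, or 0.051%, and 0 of the 10 described here. The adjusted CPM of Il2rg were 408, 387 and 309 in WT and 529, 604 and 434 in KO, again with no overlap, as for 9.2% of genes in the upward direction. Those of Socs1 were 57.5, 61.9 and 51.7 in WT and 143, 54.6 and 63.1 in KO, so that KO replicate 1 still stood out. For Cish KO replicate 1 was at 373, against 167 to 214 in the other 5 libraries.

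The order of the genes by level was read from FPKM, the one scale here that accounts for length. Il2ra led in all 6 libraries, at 937 ± 239 FPKM in WT and 887 ± 259 FPKM in KO (mean ± SD, n = 3 each). Its rank among all 24917 symbols was between 53 and 122. Il2rg (186 ± 26.5 in WT and 262 ± 47.3 in KO) and Il2rb (217 ± 60.2 and 261 ± 153) came next and could not be ordered, since Il2rg was the higher in 3 of 6 libraries. Pim1 followed at 156 ± 29.7 and 120 ± 10.0 FPKM, below Il2rb in 5 of 6 libraries and above Socs2 in 6 of 6.

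Below these, Socs2 (76.2 ± 9.72 and 86.3 ± 30.4 FPKM) and Pim2 (72.3 ± 7.45 and 46.6 ± 13.5 FPKM) were not separated, with Socs2 the higher in 3 of 6. Pim2 was above Stat5a in the 3 WT libraries and below it in the 3 KO libraries, a comparison made after the values were seen. Stat5a (48.6 ± 4.94 and 68.4 ± 37.7 FPKM) was above Cish (48.5 ± 6.58 and 80 ± 62.8 FPKM) in 4 of 6. Cish was above Stat5b in every library. Stat5b (37.8 ± 7.01 and 42.3 ± 20.4 FPKM) and Socs1 (34.2 ± 5.79 and 100.1 ± 123 FPKM) were the lowest by median over the 6 libraries, with Stat5b above Socs1 in 3 of them.

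**Figure D4:**
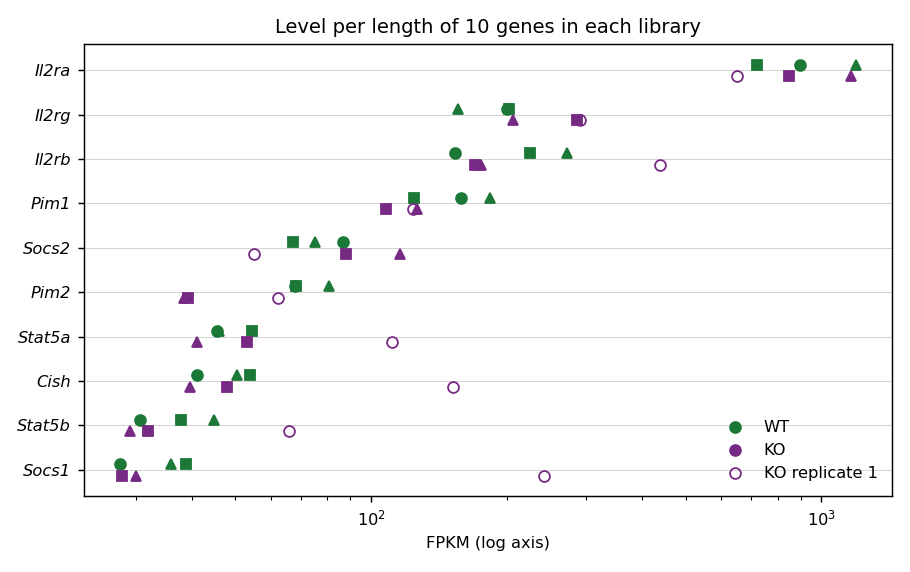
FPKM of the 10 genes in each library (x axis, log scale), ordered by the median over the 6 libraries (y axis). Each marker is a library, with WT in green, KO in purple and KO replicate 1 as an open circle. Il2ra, at 650 to 1193 FPKM, lies above every other gene in every library.

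Ratios between partners within a library do not depend on its depth, but they were not adjusted for GC content. Il2ra (44.4% GC) and Il2rb (53.9% GC) lie in deciles whose medians in KO replicate 1 were -0.638 and 0.695 relative to the other libraries. Il2rb stood at 17.1%, 31.2% and 22.9% of Il2ra in WT, and at 67.4%, 20% and 15.1% in KO. KO replicate 1 was again the library apart, and the others overlapped. The log2 ratio differed by 0.25 between groups (exact two-sided permutation test, p = 0.9) and by -0.41 without KO replicate 1. Il2rg stood at 22.4%, 28.1% and 13% of Il2ra in WT and 44.8%, 33.8% and 17.8% in KO (difference in log2 ratio 0.57, exact permutation p = 0.4). Stat5b stood at 67.5%, 69.7% and 97.5% of Stat5a in WT and 59.0%, 60.4% and 70.9% in KO, a difference in log2 ratio of -0.29 (exact permutation p = 0.3). Stat5a was the higher of the pair in all 6 libraries, with the library labelled WT replicate 3 near equality. Pim2 stood at 42.9%, 54.6% and 44.0% of Pim1 in WT and 50.2%, 36.3% and 30.4% in KO (difference in log2 ratio -0.30, exact permutation p = 0.3). None of the 4 ratios separated the groups, the adjusted p ran from 0.533 to 0.9, and 3 against 3 libraries allow no exact p below 0.1.

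Other genes of the pathway gave 0 edgeR calls in each list. Il2 itself, the ligand, had 13.5, 21.6 and 0.502 CPM in WT against 11.9, 23.7 and 1.9 CPM in KO. It varied far more within each group than between them (log2 fold change 0.08, SE 1.09, edgeR adjusted p = 0.983). Of 6 cytokines that use the gamma chain, 4 were tested and 3 were above 0, among them Il4 (log2 fold change 0.74, SE 0.29), which drives T helper 2 cells, and Il9 (1.02, SE 0.79), and the median was 0.41. The groups did not overlap for Il4, with KO above WT, as for 7.48% of all tested genes. Il21 stood at -0.11 (SE 0.58), and Il7 and Il15 had at most 2 and 5 counts in any library and were not tested.

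The other receptor genes of the gamma chain family had 2 of 5 above 0, with a median of -0.18. They include Il7r (-0.70, SE 0.51), which encodes CD127, the protein that was low on the sorted cells. For Il15ra (-0.33, SE 0.29) the KO libraries all lay below WT, as for 8.18% of all tested genes. Il21r stood at 0.20 (SE 0.27) and Il4ra at 0.15 (SE 0.33). Kinases, adaptors and phosphatases of the receptor had 7 of 13 above 0 and a median of 0.07. The 4 with the smallest p were the adaptor Gab2 (-1.30, SE 0.54), the exchange factor Sos1 (-0.57, SE 0.38), the adaptor Sh2b3 (0.44, SE 0.30) and Jak3 (0.83, SE 0.58). Jak3, the kinase bound to the gamma chain, had 47.1, 63.9 and 99.9 CPM in WT against 256, 56.0 and 62.6 CPM in KO, another gene at which KO replicate 1 alone was high.

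Of the other STAT genes 2 of 5 were above 0 (median -0.16). Stat4, which acts downstream of IL-12, stood at -0.49 (SE 0.32). Stat3 and Stat2 were both at -0.16 (SE 0.27 and 0.39). Of the remaining SOCS and PIM genes 2 of 6 were above 0 (median -0.16), with Socs3 at -0.52 (SE 0.48), Socs6 at -0.32 (SE 0.32), Socs5 at -0.23 (SE 0.33) and Pim3 at 0.30 (SE 0.56). Pim3 had 25.1, 34.1 and 41.0 CPM in WT against 84.7, 20.9 and 17.6 CPM in KO. Its highest value was in KO replicate 1, and the groups overlapped.

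Known targets of IL-2 and STAT5 lay on both sides of 0. Of 18 genes that IL-2 raises, 8 were above 0 and 10 below, with a median of -0.13. Those with the smallest p were Foxp3 (1.68, SE 0.25, edgeR adjusted p = 0.197), which defines Treg cells, the cytokine gene Lta (0.999, SE 0.25), the granule protease gene Gzmb (-1.20, SE 0.34) and Il12rb2 (-1.77, SE 0.56), a chain of the IL-12 receptor. In each of these 4 the groups did not overlap, upward for the first 2 and downward for the others, against 15.7% of all tested genes without overlap in either direction. DESeq2 called Foxp3 and Lta higher and none of the 18 lower, where it called 1.1% of all tested genes. The 4 were picked by their p, so this is a description of them alone. Of 5 genes that IL-2 lowers, 3 were above 0 (median 0.41). These were Bcl6 (0.82, SE 0.40), a transcription factor that STAT5 represses, Il6st (0.41, SE 0.21) and Il6ra (0.45, SE 0.25), the chains of the IL-6 receptor, each with KO above WT in all libraries, as for 7.48% of all tested genes. The other members, Il7r (-0.70, SE 0.51) and Tcf7 (-0.17, SE 0.30), were below 0, with overlap.

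Summed levels of cell type markers are given beside these values, and of all the markers edgeR called only Cd8b1. DESeq2 called Cd8b1 and Cd8a lower and Foxp3 and Fcer1g higher, where it called 1.1% of all tested genes. Foxp3, the defining Treg gene, was present in every library, at 104 to 160 CPM in WT and 357 to 464 CPM in KO. Of 11 Treg markers, Foxp3 among them, 10 were above 0 (median 0.73), where 51.6% of all tested genes were. Ctla4 lay below 0 (-0.79, SE 0.46). Summed levels of the Treg markers were 1490 to 2080 CPM in WT and 2100 to 2210 CPM in KO. Of 4 T cell markers 4 were above 0, Cd4 and Cd3e at 0.70 and 0.68, and Cd3g and Cd3d at 0.08 and 0.04. The CD8 genes Cd8a and Cd8b1 summed to 193 to 269 CPM in WT and 38.9 to 60.4 CPM in KO (Cd8b1 lower, edgeR adjusted p = 0.0166). NK cell markers summed to 13.7 to 20.2 CPM in WT and 22.2 to 40.6 CPM in KO. Most of this was Eomes (12.96, 19.68 and 12.3 CPM in WT, 19.55, 24.74 and 36.97 in KO, with overlap). Klrb1b, Klrb1c and Ncr1 reached at most 4.525, 1.904 and 2.036 CPM. Macrophage and monocyte markers summed to 1.99 to 5.95 CPM in WT and 10.3 to 15.7 CPM in KO. Most of this was Fcer1g (means 1.03 and 6.27) and Cd68 (2.68 and 5.96). Csf1r and Lyz2 were at 0 in all libraries, and the other markers listed had at most 10 counts. B cell markers summed to 2.55 to 4.41 CPM in WT and 0.802 to 4.8 CPM in KO. CD8 T cells and NK cells also express Il2rb and Il2rg. The sort was for CD4+CD25+CD127lo cells, but transcripts of both CD8 genes were read in every library. For comparison, the WT libraries held Cd4 at 315.5, 290.1 and 238.2 CPM, and those of KO held it at 424.7, 447 and 502.4 CPM. Whether CD8 T cells or NK cells remained after the sort was not tested, nor was their part in the values. In bulk RNA, fewer cells of a type and less RNA per cell cannot be told apart.

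The genes whose pattern was most alike were sought for the 3 members with the smallest p, by the root mean square difference of log2 CPM, centred on each gene, over the 6 libraries. For Socs1 they were Tpgs1 (0.0862), Mif (0.119) and Ttyh3 (0.131), with transcripts of 65.3%, 63.5% and 61.4% GC, all of them high in KO replicate 1 alone. Mif, for example, had 71.9, 73.3 and 82.4 CPM in WT against 386, 69.8 and 75.0 CPM in KO. For Pim2 they were Angel1 (0.113), Mettl22 (0.147) and Osm (0.15). Osm, which encodes the cytokine oncostatin M and is itself known as a STAT5 target, had 35.3, 38.5 and 49.3 CPM in WT against 46.2, 19.5 and 22.3 CPM in KO, with a log2 fold change of -0.48 (SE 0.36, edgeR adjusted p = 0.754). For Il2rg they were Pigb (0.0401), Fyn (0.0735) and Arhgef3 (0.0804). No member was among the 3 genes most like another member: the closest such pair was Il2rb and Stat5b, at 0.168, where Stat5b ranked 193 among the tested genes by likeness to Il2rb.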

How the data were processed

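The 10 genes and all gene lists were chosen with earlier results of these data known. Reads of 75 bases were aligned by the authors with STAR 2.4.2a, per the file headers, to mm9, per the submitters' processing notes. The authors deposited raw counts per gene symbol and, in a second table, FPKM values. Neither the counting tool nor its strand setting is given in the sources used here. The deposited alignment report gave mismatch rates. Groups and replicate numbers come from the sample titles. One label field names effector CD4 T cells, while titles and protocol name nTreg cells, which was followed. The design text gives 3 mice a group.

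The main test was the quasi-likelihood test of edgeR 4.0.16 (R 4.3.3) after TMM scaling and filterByExpr, minimum count 10. P-values were adjusted by Benjamini-Hochberg over all 11772 genes, with a threshold of 0.05, and standard errors come from the F statistic. Alternatives used DESeq2 1.42.0 and limma 3.58.1 (log2 of FPKM plus 1 or 0.1). GC content came from the longest GENCODE transcript, for 99.2% of tested genes. The offset, a loess fit on GC content and length with span 0.3, was added later. Entries with a date for a symbol (26, 0.271% of counts) stayed in library sizes and, where they passed the filter, among the tested genes. They were left out only of the search for alike patterns. Named besides the 10 genes are Srsf1, Il2, up to 4 genes of each pathway list with the smallest p, and the most alike patterns. One gene that this rule includes is not reported here. Il7, Il15, Tcf7, Cd8a, Cd8b1, Csf1r and Lyz2 were named after their values were seen. So were Cd4, Cd3d, Cd3e, Cd3g, Ctla4, Eomes, Klrb1b, Klrb1c, Ncr1, Fcer1g and Cd68. Alternatives were other scalings and filters, DESeq2, voom, limma on FPKM, the replicate block, the animals' sex (read from the libraries) as a covariate, each library left out, and 2 against 2 libraries (without KO replicate 1 and WT replicate 3). The scripts were tested on simulated data. Same-numbered libraries of the 2 groups deviated together at r = -0.361, 0.145 and 0.138, and differently numbered ones at -0.375 to 0.324. These few values, some from the unlike KO replicate 1, cannot decide whether the numbers pair the libraries. Libraries of the same number were also alike in sex. The main test used no pairing.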

Additional observations from a re-analysis of the deposited data

How the results depend on the processing

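Of the 10 genes, 0 were called under 19 of 20 alternatives, and 1 (Pim2) with 2 against 2 libraries. Over all genes the 2 calls became 6 without a filter, 129 with DESeq2, 1 with voom, 80 with 2 against 2 libraries, 0 with sex as a covariate (695 at an unadjusted p under 0.05), 0 with limma on log2(FPKM + 1) without a filter (1040) and 6 with the GC and length offset, and ran from 0 to 3 with 1 library left out (509 to 1272). Replicate numbers as a block gave 1 call and 0 among the 10 genes.

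Il2rg, Pim1 and Pim2 kept their sign under all 20 alternatives (0.29 to 0.52, -0.47 to -0.12 and -1.04 to -0.48). The other 7 turned. Without 1 library, log2 fold changes ranged from -0.39 to 0.14 for Il2ra, -0.28 to 0.38 for Il2rb, -0.011 to 0.58 for Stat5a, -0.26 to 0.15 for Stat5b, -0.12 to 0.87 for Cish, -0.045 to 1.78 for Socs1 and -0.27 to 0.38 for Socs2. With 2 against 2 libraries Il2ra stood at 0.33, Il2rb at -0.090, Stat5a at -0.057, Stat5b at -0.13, Cish at -0.085 and Socs1 at -0.030. With the offset Il2ra stood at 0.072, Il2rb at -0.091, Stat5a at -0.040 and Stat5b at -0.18. Stat5b was at -0.0085 without a filter, -0.0055 with voom and -0.0063 with the replicate block, and Socs2 at -0.017 with voom and -0.010 with the block. The log2 ratio of Il2rb to Il2ra ranged from -0.41 to 0.67 with 1 library left out. The cause of these turns was not tested. The lowest count behind any of these values was 529, and no alternative tested the effect of depth.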
